A study of Arabidopsis thaliana with 9 samples.

Results

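GSTU1 to GSTU7 are 7 tau-class glutathione S-transferase genes that lie next to each other on chromosome 2 of Arabidopsis thaliana. They were taken by their gene identifiers, AT2G29490, AT2G29480, AT2G29470, AT2G29460, AT2G29450, AT2G29440 and AT2G29420 in the order GSTU1 to GSTU7, and all 7 were found among the 33602 genes of each table. RNA sequencing was applied to whole seedlings, 9 days old, on diluted MS medium with 2% sucrose, in 3 groups of 3 libraries. The mutant tt19-8 lacks a working TT19 gene per the labels, and TT19 encodes a phi-class glutathione S-transferase required for anthocyanin to build up. The groups OE1 and OE2 are labelled as overexpressing CsGSTF1, a glutathione S-transferase of tea, and the series asks whether CsGSTF1 makes up for the lack of anthocyanin in tt19-8. The labels give no promoter for CsGSTF1, no number of independent clones or lines, no accession of Arabidopsis, and no statement that OE1 and OE2 carry the tt19 mutation, though the series title implies it. Whether the 3 libraries of each group were grown as separate cultures is not given, and a p-value below reflects just the spread among these samples.

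Glutathione S-transferases join the tripeptide glutathione to reactive, mostly electrophilic compounds, and many also reduce organic peroxides. The tau class is found in plants, where its genes are known for conjugating herbicides and for rising transcript levels after chemical, oxidative or hormone treatment, in part through TGA transcription factors. The conjugates are carried into the vacuole by ABCC transporters and broken down there. Of the 7 enzymes, GSTU7 has been linked to tolerance of the herbicide methyl viologen, and individual roles of the others are not given here.

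All 7 genes lie on the minus strand within 14603 bases and have 2 exons each in the RefSeq annotation of TAIR10.1. In order of coordinate they are GSTU7 at chr2:12617936-12618899, GSTU6 at chr2:12619630-12621231, GSTU5 at chr2:12624403-12625790, GSTU4 at chr2:12626478-12627891, GSTU3 at chr2:12628422-12629640, GSTU2 at chr2:12630198-12631321 and GSTU1 at chr2:12631341-12632538. GSTU1 and GSTU2 are separated by 19 bases, GSTU5 and GSTU6 by 3171 bases, and the other neighbours by 530 to 730 bases. Genes annotated on the opposite strand overlap GSTU2, GSTU6 and GSTU7, and whether the counting used strand is not stated. Of these overlapping genes, AT2G29430 reached at most 0.0434 FPKM and MTPB1 at most 0.221 FPKM in any library, and AT2G29485 and AT2G08340 were not analysed here.

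The members are copies of one another to different degrees. Read length and the counting of reads that match several copies are not given in the sources used here. Over the 21 pairs, identity in global alignment ranged from 61.9% to 85.5% with a median of 74%. GSTU1 and GSTU2 were the closest pair (85.5%), followed by GSTU1 and GSTU4 (83.9%), while GSTU7 had at most 66.1% identity with another member. The longest run of bases shared by any pair was 42 bases. The closest tau gene outside the array was GSTU8 for every member, at 57.2% to 60.9%. In an alignment of all 7, 290 of the 669 gap-free columns held the same base. The 60 coding bases below, from near the start of each coding sequence in RefSeq TAIR10.1, are shown because they let the copies be compared base by base. Capitals mark bases shared by all 7.
GSTU1: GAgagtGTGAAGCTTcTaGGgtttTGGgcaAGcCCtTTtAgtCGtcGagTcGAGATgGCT
GSTU2: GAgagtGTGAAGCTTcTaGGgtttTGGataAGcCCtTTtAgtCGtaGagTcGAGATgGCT
GSTU3: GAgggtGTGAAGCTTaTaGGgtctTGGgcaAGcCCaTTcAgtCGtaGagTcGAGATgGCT
GSTU4: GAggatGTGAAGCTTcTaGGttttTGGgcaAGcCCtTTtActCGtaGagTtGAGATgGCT
GSTU5: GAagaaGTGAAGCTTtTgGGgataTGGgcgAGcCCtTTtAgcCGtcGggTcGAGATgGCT
GSTU6: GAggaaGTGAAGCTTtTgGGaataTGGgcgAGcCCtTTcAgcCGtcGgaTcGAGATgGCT
GSTU7: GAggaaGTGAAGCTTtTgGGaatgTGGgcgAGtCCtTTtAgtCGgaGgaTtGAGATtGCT

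Upstream sequences are shown for GSTU1, GSTU4, GSTU5 and GSTU7, the members with the largest log2 differences between OE2 and tt19-8. Each is the 250 bases before the annotated start of the gene, read 5′ to 3′ on the minus strand of TAIR10.1, at chr2:12632539-12632788 for GSTU1, chr2:12627892-12628141 for GSTU4, chr2:12625791-12626040 for GSTU5 and chr2:12618900-12619149 for GSTU7. Capitals mark TGACG on either strand, the core of the motif that TGA factors bind.
GSTU1: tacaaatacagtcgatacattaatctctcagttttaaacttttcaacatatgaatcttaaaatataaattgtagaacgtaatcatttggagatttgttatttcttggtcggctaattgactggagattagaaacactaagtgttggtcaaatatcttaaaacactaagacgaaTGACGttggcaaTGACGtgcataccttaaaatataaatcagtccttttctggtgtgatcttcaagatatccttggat
GSTU4: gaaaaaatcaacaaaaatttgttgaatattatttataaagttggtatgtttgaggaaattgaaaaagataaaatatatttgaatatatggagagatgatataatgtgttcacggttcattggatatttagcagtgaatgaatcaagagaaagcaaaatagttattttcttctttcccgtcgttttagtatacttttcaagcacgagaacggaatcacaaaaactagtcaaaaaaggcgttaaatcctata
GSTU5: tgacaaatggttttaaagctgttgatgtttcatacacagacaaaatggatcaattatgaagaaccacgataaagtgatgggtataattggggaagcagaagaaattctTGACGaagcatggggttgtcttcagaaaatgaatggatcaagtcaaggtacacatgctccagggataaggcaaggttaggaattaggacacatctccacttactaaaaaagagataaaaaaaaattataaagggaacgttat
GSTU7: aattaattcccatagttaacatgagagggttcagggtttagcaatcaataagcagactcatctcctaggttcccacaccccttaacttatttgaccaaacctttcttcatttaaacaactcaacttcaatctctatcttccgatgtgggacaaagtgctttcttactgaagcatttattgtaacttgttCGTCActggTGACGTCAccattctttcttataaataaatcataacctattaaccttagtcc

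GSTU1 held 2 matches to TGACG, at 77 and 65 bases before its start, and GSTU5 held 1, at 142 bases. GSTU7 held 3, at 61, 52 and 49 bases, of which the last 2 overlap on opposite strands as the palindrome TGACGTCA. GSTU4 and GSTU2 held none, and GSTU3 and GSTU6 held 1 each. The GSTU2 window begins 19 bases from GSTU1 and lies mostly inside it, and the windows of GSTU5 and GSTU7 overlap the annotated genes AT2G29452 and AT2G00850. Over 27438 windows of the same length before annotated genes, TGACG was found in 18.6%, at least 2 matches in 3.21%, and TGACGTCA in 0.503%. A match is a description of the letters and not a shown binding site, and a window without one says nothing of binding.

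Values are FPKM, which relate the fragments of a gene to its length in kilobases and to library size. In OE1 and tt19-8 the values are exact multiples of what 1 fragment is worth, from which 16.2 M to 19.1 M fragments in genes were recovered per library, M standing for the prefix mega. OE2 has no such steps and its depth is unknown. In genes of 2 exons the length behind the FPKM was that of about 1 exon, 34% to 60% of the annotated exon length in the 7 members. Levels of different members are therefore comparable only roughly, while 1 member across the OE1 and tt19-8 libraries is not touched by it. The length behind the OE2 values could not be recovered, so for comparisons with OE2 this is not known. Each value set in the OE2 tables was tied to the OE1 library of the same number: no gene above 0 in OE1 lay below 0.6002 times its OE1 value, over 21905, 22005 and 22196 genes in pairs 1, 2 and 3. A p-value with OE2 in it is thus no independent evidence beside OE1. How the OE2 tables were made, and whether they are measurements separate from the OE1 tables, is not given in the sources used here, so each OE2 value below is a value of the deposited table labelled OE2. Replicate 3 of tt19-8 stood apart from its group: its root mean square difference in log2(FPKM + 1) was 0.521 and 0.549 when set against tt19-8 replicates 1 and 2, and 0.406 to 0.414 when set against OE1.

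In tt19-8 the array was led by GSTU1 and GSTU5, and GSTU3 was near 0. GSTU1 averaged 10.5 ± 0.811 FPKM (SD, n = 3) and GSTU5 averaged 7.42 ± 3.31 FPKM, with overlapping libraries. GSTU7 (1.62 ± 0.478 FPKM), GSTU2 (1.55 ± 0.417 FPKM), GSTU4 (1.48 ± 0.631 FPKM) and GSTU6 (1.35 ± 0.626 FPKM) followed, and these 4 did not differ beyond their spread. In OE1, GSTU1 (9.63 ± 1.89 FPKM) and GSTU5 (9.32 ± 5.48 FPKM) again stood before the same 4, whose means lay between 1.06 and 1.96 FPKM. By FPKM, the order in OE2 was GSTU5, GSTU4, GSTU1 and then GSTU7. The OE2 libraries of GSTU4 overlapped those of GSTU5 and GSTU1, while every OE2 library of GSTU5 lay above every one of GSTU1. In OE1 and tt19-8 the length used was 51.5% of the annotated exon length (GSTU1), 43.1% (GSTU4) and 42.9% (GSTU5). OE2 fragments were not recovered, so the OE2 order and lack of overlap were not checked at full exon length and may depend on it. With recovered fragments divided by the full annotated exon length, GSTU1 and GSTU5 were again the highest members, at 5.43 ± 0.418 and 3.19 ± 1.42 fragments per kilobase, relative to the library total as in FPKM, in tt19-8, and with 4.96 ± 0.971 for GSTU1 in OE1.

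**Figure D1:**
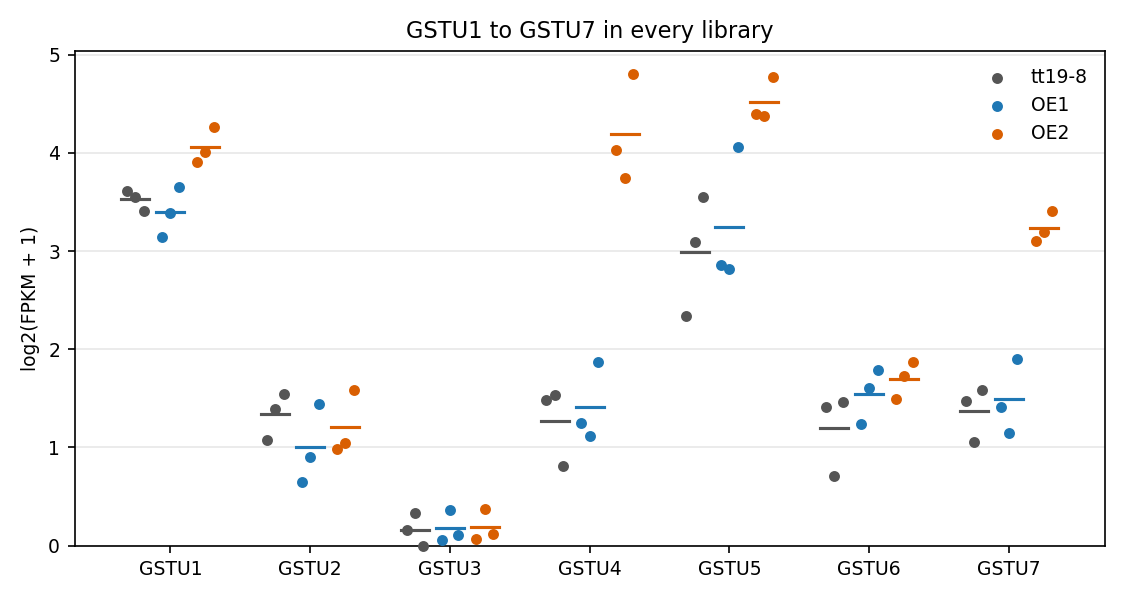
Values of GSTU1 to GSTU7 as log2(FPKM + 1) on the vertical axis, with 1 point per library, replicates 1 to 3 from left to right, and a bar at the mean of each group of 3. The OE2 points of GSTU4, GSTU5 and GSTU7 lie above all points of tt19-8 and OE1, and GSTU3 lies near 0 in all 9 libraries.

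GSTU4 was the member with the largest difference between groups. Replicates 1, 2 and 3 of tt19-8 gave 1.79, 1.90 and 0.754 FPKM, and those of OE1 gave 1.38, 1.17 and 2.66 FPKM. The OE2 replicates gave 15.3, 12.4 and 26.9 FPKM. All 3 OE2 libraries were higher than all 6 others, and the libraries of OE1 and tt19-8 overlapped. The lower groups rest on few fragments, 47, 47 and 22 in tt19-8 and 34, 30 and 74 in OE1. The mean in OE2, 18.2 ± 7.66 FPKM, was 12.3 times that in tt19-8. GSTU4 rose in OE2 by 2.92 ± 0.31 on the log2(FPKM + 1) scale, a scale that understates changes of low genes (limma, adjusted p = 0.00114). It ranked at place 7 by log2 change among the 18232 genes tested. In whole seedlings, a change in the number of cells that express a gene and a change of RNA per cell cannot be told apart.

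GSTU7 had the second largest difference. The tt19-8 replicates gave 1.78, 1.08 and 1.99 FPKM, and those of OE1 gave 1.66, 1.22 and 2.74 FPKM. The OE2 replicates gave 7.57, 8.13 and 9.65 FPKM, a mean of 8.45 ± 1.07 FPKM. Again all OE2 libraries were above all others, and OE1 overlapped tt19-8. Fragments numbered 49, 28 and 61 in tt19-8 and 43, 33 and 80 in OE1. GSTU7 rose in OE2 by 1.86 ± 0.23 on the log2 scale (limma, adjusted p = 0.00186), with 5.23 times the mean FPKM of tt19-8.

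GSTU5 rose too, from a group in which its libraries were far apart. The tt19-8 replicates gave 4.07, 7.51 and 10.7 FPKM, and those of OE1 gave 6.27, 6.04 and 15.6 FPKM. The OE2 replicates gave 20.1, 19.8 and 26.4 FPKM, a mean of 22.1 ± 3.71 FPKM. The OE2 libraries were above all others, though OE1 replicate 3 came near to them. The change against tt19-8 was 1.53 ± 0.36 on the log2 scale (limma, adjusted p = 0.0209), with 2.98 times the mean FPKM. This call ended without OE2 replicate 1 (adjusted p = 0.0643), OE2 replicate 3 (0.0706), tt19-8 replicate 1 (0.0754) or tt19-8 replicate 2 (0.0717), with log2 changes of 1.2 to 1.58 in these fits.

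GSTU1, the highest member in tt19-8 and OE1, moved less. The tt19-8 replicates gave 11.2, 10.7 and 9.65 FPKM, and those of OE1 gave 7.82, 9.50 and 11.6 FPKM. The OE2 replicates gave 14.0, 15.2 and 18.3 FPKM, a mean of 15.8 ± 2.19 FPKM, or 1.5 times the tt19-8 mean. All OE2 libraries were higher than all others. The log2 change against tt19-8 was 0.54 ± 0.17 and did not pass (limma, adjusted p = 0.0521). It passed after median-ratio scaling (0.72, adjusted p = 0.0201) and after scaling every library to the same total (0.78, adjusted p = 0.017). The tables of OE2 sum to 867529 to 912535 FPKM, and those of tt19-8 to 1056688 to 1096075 FPKM.

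The remaining 3 members gave no call. For GSTU6 the tt19-8 replicates gave 1.66, 0.633 and 1.77 FPKM, those of OE1 gave 1.36, 2.05 and 2.46 FPKM, and those of OE2 gave 1.82, 2.31 and 2.66 FPKM. Its OE2 libraries all lay above those of tt19-8, by a narrow margin, with a log2 change of 0.50 ± 0.24 (limma, adjusted p = 0.161), or 0.26 without tt19-8 replicate 2. For GSTU2 the tt19-8 replicates gave 1.10, 1.63 and 1.93 FPKM, those of OE1 gave 0.571, 0.875 and 1.72 FPKM, and those of OE2 gave 0.977, 1.07 and 2.00 FPKM. All 3 groups overlapped, and the log2 change in OE2 against tt19-8 was -0.13 ± 0.25 (limma, adjusted p = 0.732). For GSTU3 the tt19-8 replicates gave 0.121, 0.256 and 0 FPKM, those of OE1 gave 0.0430, 0.288 and 0.0762 FPKM, and those of OE2 gave 0.0481, 0.296 and 0.0876 FPKM. It held at most 7 fragments in any OE1 or tt19-8 library, and its 0 in tt19-8 replicate 3 allows up to 0.109 FPKM (3 fragments, counting error only). GSTU3 did not reach 1 FPKM in 3 libraries and was the 1 member not tested.

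**Figure D2:**
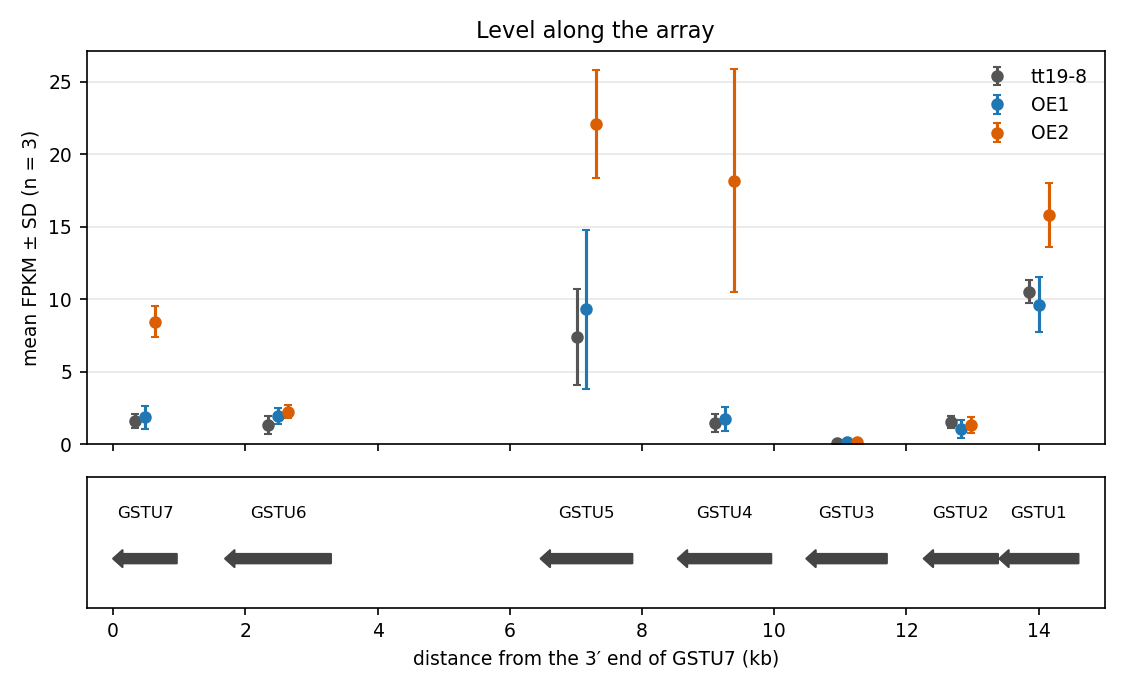
Upper panel, mean FPKM with SD (n = 3) of each member in tt19-8, OE1 and OE2, placed by its position in the array. Lower panel, the 7 genes as arrows in the direction of transcription, with the distance from the 3′ end of GSTU7 in kb. GSTU4, with 18.2 FPKM in OE2, stands next to GSTU3, which stays below 0.3 FPKM.

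For OE2 against tt19-8 limma thus called 3 of 6 tested members, all higher, where 4.5% of all 18232 tested genes were called higher, 14.5% lower and 19% in either direction. For 5 of the 6 members the OE2 libraries all lay above the tt19-8 libraries, where 9.35% of tested genes had this pattern. The median log2 change of the 6 members was 1.03, and that of all tested genes was -0.18. Without tt19-8 replicate 3 the count was again 3 members. Without OE2 replicate 1 or 3, or tt19-8 replicate 1 or 2, GSTU5 was not called, which left GSTU4 and GSTU7. GSTU1 was called as well under median-ratio scaling, under scaling to the same total and with the replicate block. Markers of root hair cells moved in the same comparison: 3 of 4 fell, and the 4 together had summed levels of 26.2 to 30.9 FPKM (tt19-8), 17.3 to 21.6 FPKM (OE1) and 15.3 to 19.1 FPKM (OE2). None of 5 leaf markers and none of 3 tested seed markers passed, the 4 seed markers had summed levels of 60.4 to 439 FPKM (tt19-8), 2.39 to 58.8 FPKM (OE1) and 19.8 to 59.8 FPKM (OE2), and no marker of the 3 lists was at 0 in all libraries. Under median-ratio scaling and under scaling to the same total, 1 root marker was lower and 1 leaf marker higher, and without the filter 2 root markers were lower. With the replicate block 4 root markers and 1 seed marker were lower. Over all tested genes, median-ratio scaling gave 1246 higher and 1081 lower of 18253, and scaling to the same total 1425 and 526 of 18282. Lower calls over all tested genes were 2266 of 25417 without the filter and 3640 of 18232 with the replicate block. The part of the markers in the changes of the array was not tested.

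For OE1 against tt19-8 limma called 0 of the 6 members, where 0.0165% of tested genes were called, and 0 members had an unadjusted p under 0.05. Without tt19-8 replicate 3 the count over all genes was 3128 of 18128, and no member was called. The fragments recovered from OE1 and tt19-8, tested with limma's voom, gave 0 calls over all genes. The log2 changes ranged from -0.34 ± 0.25 for GSTU2 to 0.35 ± 0.24 for GSTU6, with adjusted p of 0.421 to 0.828. Without tt19-8 replicate 2 the GSTU6 change was 0.11. OE1 overlapped tt19-8 in all 6 members, where 17.5% of tested genes did not overlap. The directions of GSTU4, GSTU5 and GSTU7 turned when 1 library was left out, GSTU4 for instance from 0.14 to -0.09 without tt19-8 replicate 3. Both comparisons use the same tt19-8 libraries, and their limma p-values use a spread to which the OE2 libraries contributed. A fit that left out the whole of OE2 called no gene in OE1 against tt19-8, and so no member.

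**Figure D3:**
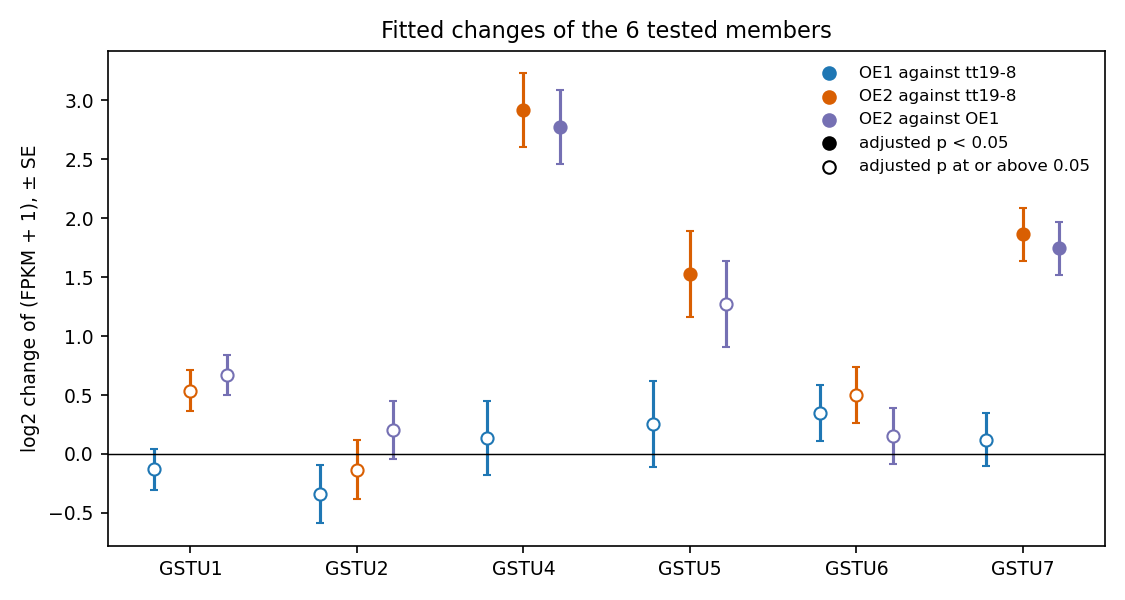
Log2 changes of (FPKM + 1) with limma standard errors for the 6 tested members in OE1 against tt19-8, OE2 against tt19-8 and OE2 against OE1, with filled points for an adjusted p under 0.05. Filled points appear for GSTU4 and GSTU7 in both comparisons with OE2, and for GSTU5 in OE2 against tt19-8.

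The tables labelled OE2 and OE1 were also compared with each other, with the tie between them as given above. Against OE1, GSTU4 was higher in OE2 by 2.78 ± 0.31 on the log2 scale (limma, adjusted p = 0.0018) and GSTU7 by 1.74 ± 0.23 (adjusted p = 0.00331). GSTU5 (1.27 ± 0.36, adjusted p = 0.151) and GSTU1 (0.67 ± 0.17, adjusted p = 0.104) did not pass, although all their OE2 libraries were above all OE1 libraries. The count was 2 of 6 members higher, where 1.39% of tested genes were called higher. For 4 of the 6 members all OE2 libraries lay above all OE1 libraries, where 7.04% of tested genes had this pattern. With only OE1 and OE2 in the fit and the replicate number as a block, which uses the tie between same-numbered libraries, GSTU1 (adjusted p = 0.00276), GSTU4 (0.000521), GSTU5 (0.0259) and GSTU7 (0.00388) all passed, while the calls over all genes went from 260 to 12031. That fit was chosen after seeing the data. With all 9 libraries and the replicate block, GSTU4 (adjusted p = 0.018) and GSTU7 (0.00641) passed, GSTU1 (0.0887) and GSTU5 (0.0519) did not, and 334 genes were called.

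Within same-numbered libraries, which are tied as given above, the ratio of OE2 to OE1 for GSTU4 was 11.1, 10.6 and 10.1 in pairs 1, 2 and 3. How much the ratio of other genes varied between pairs was not measured, so its evenness is no result about GSTU4. Over all tested genes the median ratio was 0.941, 0.946 and 0.932, and the highest 1% began at 3.50, 4.10 and 3.37. GSTU7, with 4.55, 6.65 and 3.51, lay above that mark in each pair. GSTU5 had ratios of 3.21, 3.28 and 1.69, and GSTU1 had 1.80, 1.60 and 1.58. GSTU2 had 1.71, 1.22 and 1.16, and GSTU6 lay between 1.08 and 1.33. GSTU3, which was not tested and rests on 1, 7 and 2 fragments in OE1, was at 1.12, 1.03 and 1.15. All 7 ratios lay above the median of tested genes in every pair. A median leaves as many genes above it as below, and the share of tested genes above it in all 3 pairs was not counted.

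**Figure D4:**
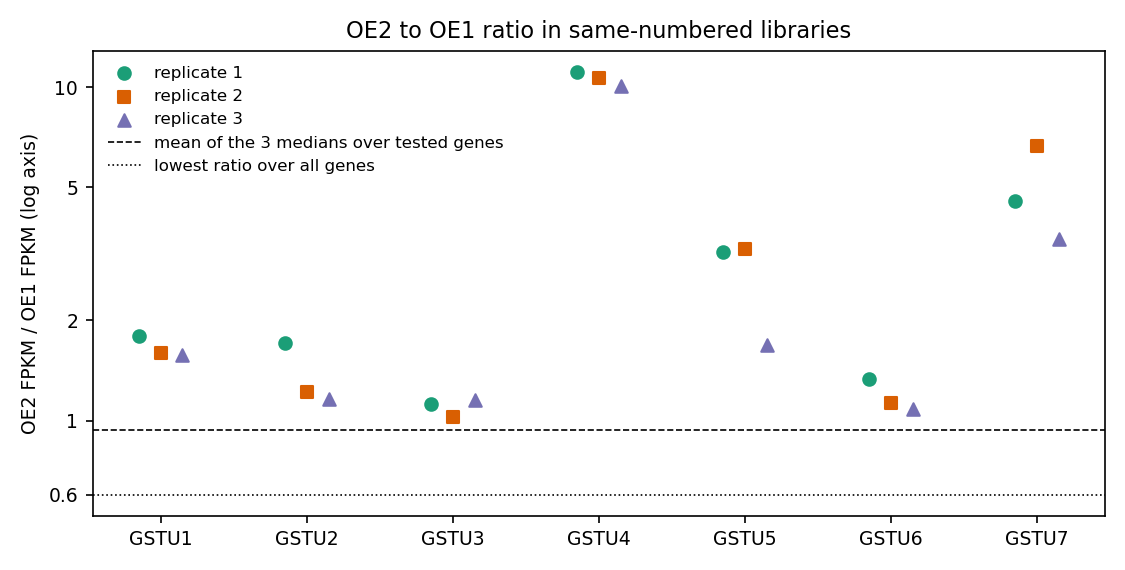
Ratio of OE2 FPKM to OE1 FPKM in libraries of the same number, on a log axis, for each member and each of the 3 pairs. The dashed line is the mean of the 3 medians over tested genes and the dotted line the lowest ratio over all genes, 0.6002. GSTU4 lies near 10 in all 3 pairs.

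Summed over the 7 genes, the tt19-8 replicates gave 21.8, 23.7 and 26.8 FPKM, those of OE1 gave 19.1, 21.1 and 36.9 FPKM, and those of OE2 gave 59.9, 59.2 and 85.9 FPKM. The OE2 sums were above all others, and OE1 overlapped tt19-8. The shares of the members show how the sum was made up by FPKM, with members comparable only roughly because of the lengths given above. GSTU4 made up 2.82% to 8.21% of the sum in tt19-8, 5.52% to 7.22% in OE1 and 20.9% to 31.3% in OE2. GSTU1 made up 36.1% to 51.7% in tt19-8, 31.4% to 44.9% in OE1 and 21.3% to 25.6% in OE2, and GSTU5 had overlapping shares in the 3 groups. Replicate 3 was the highest library of its group for all 6 tested members in OE1 and in OE2, where it was the highest for 43.8% of tested genes in each. In tt19-8 it was the highest for 4 of the 6, against 30% of tested genes.

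**Figure D5:**
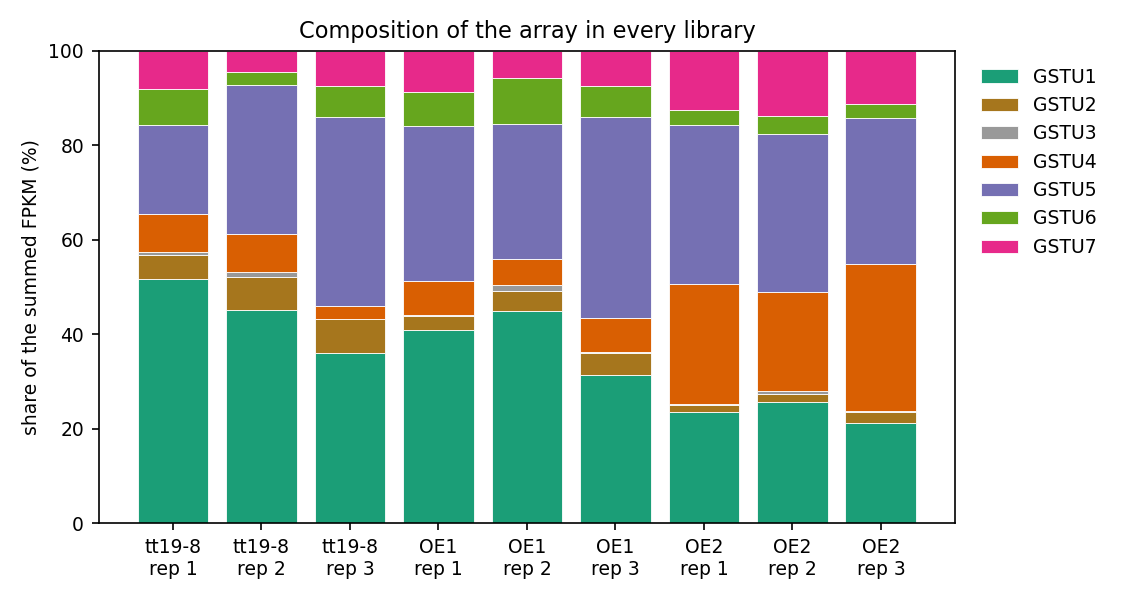
Share of each member in the summed FPKM of the array, in percent, with 1 bar per library and replicates numbered as in the labels. GSTU4 widens to 20.9% to 31.3% in the 3 OE2 libraries, and GSTU1 narrows to 21.3% to 25.6%.

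The genes next to the array went both ways. Within the array, AT2G29452 was at 0 in every library. On the GSTU7 side the nearest tested gene was TOPP1, a protein phosphatase gene, at 43.1 FPKM on average in tt19-8 and 40.8 FPKM in OE2 (log2 change -0.08, adjusted p = 0.757 by limma). Of the 10 flanking tested genes, 5 on each side, 3 were higher and 1 lower in OE2 against tt19-8, beside the 4.5% and 14.5% over all tested genes. The phosphatase gene HAI3 rose by 0.90 (adjusted p = 0.0201), AT2G29370 rose by 0.98 (adjusted p = 0.025), and AT2G29500, the small heat shock gene on the GSTU1 side, rose by 0.76 (adjusted p = 0.0238). HAI3 reached at most 0.690 FPKM in tt19-8 and 0.798 FPKM in OE1, and averaged 1.54 ± 0.113 FPKM in OE2. It passed the filter of 1 FPKM only through OE2, so its place among the 3 depends on the group where it was high. The sterol gene SMO2-2 fell by 0.95 (adjusted p = 0.0171). In OE2 against OE1 and in OE1 against tt19-8 limma called 0 of the 10.

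Among the 21 other tau-class genes listed, 17 were tested and 1 rose in OE2 against tt19-8, with a median log2 change of 0.07. A count of 1 in 17 is near the 4.5% of all tested genes called higher and is no result about the list. The gene that rose was GSTU19, a highly expressed tau enzyme, from 67.9 ± 5.69 to 190 ± 26.5 FPKM (1.46 ± 0.17, limma adjusted p = 0.00166). GSTU10 (0.83, adjusted p = 0.0659), GSTU8 (0.38, 0.0863) and GSTU12 (0.44, 0.104) did not pass. After median-ratio scaling the count was 4, where 1246 of all 18253 tested genes were called higher. Against OE1, 1 of the 17 was higher in OE2, again GSTU19 (1.37 ± 0.17, adjusted p = 0.00328), where 1.39% of tested genes were called higher. In OE1 against tt19-8 limma called none of the 17, with GSTU27 (-0.39, adjusted p = 0.22) and GSTU12 (0.44, adjusted p = 0.226) of lowest p.

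Of 13 phi-class genes, the class of TT19, 11 were tested and 1 rose in OE2 against tt19-8, GSTF5, from 3.32 ± 0.75 to 8.58 ± 0.449 FPKM (1.16 ± 0.16, limma adjusted p = 0.00359). This count and that of the other classes below stand beside 4.5% of all tested genes called higher. For TT19 itself, the highest library did not reach 1 FPKM, with means of 0.0509 ± 0.0572 FPKM (tt19-8), 0.0494 ± 0.0428 FPKM (OE1) and 0.805 ± 0.113 FPKM (OE2). Among 12 genes of other glutathione S-transferase classes 2 rose, the theta-class gene GSTT2 (0.75 ± 0.18, adjusted p = 0.0199) and DHAR2, a dehydroascorbate reductase that recycles ascorbate (0.95 ± 0.23, adjusted p = 0.0229). GSTT2 reached at most 1.03 FPKM in tt19-8 and 0.725 FPKM in OE1, and at least 1.59 FPKM in OE2. It passed the filter only through OE2, so its place among the 2 depends on the group where it was high. In OE1 against tt19-8 neither list had a call, GSTF5 being at 0.57 ± 0.16 (adjusted p = 0.178). The 2 calls of the other classes ended without OE2 replicate 1, OE2 replicate 3 or tt19-8 replicate 2, in each case leaving 0, and 1 was left without tt19-8 replicate 1.

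Of 15 tested genes of xenobiotic detoxification, 2 rose and 1 fell in OE2 against tt19-8, beside 4.5% higher and 14.5% lower over all tested genes. NAC032, a transcription factor, rose from 8.91 ± 1.73 to 21.6 ± 1.11 FPKM (1.2 ± 0.23, limma adjusted p = 0.0104), and the glucosyltransferase gene UGT73C1 rose by 0.72 ± 0.22 (adjusted p = 0.0435). The transporter gene DTX4 fell by 0.98 (adjusted p = 0.0336). Of 8 genes of the TGA factors and their partner SCL14, none rose and TGA1 fell by 0.70 (adjusted p = 0.0366), while TGA6 was at -0.85 (adjusted p = 0.0562). A count of 1 in 8 lower is near the 14.5% over all tested genes and is no result about these genes. Of 7 tested genes of glutathione conjugate transport and breakdown, none rose and 3 fell, the vacuolar transporters ABCC1 (-0.76 ± 0.15, adjusted p = 0.0125), ABCC3 (-0.68 ± 0.19, 0.0346) and ABCC2 (-0.61 ± 0.18, 0.0426). After median-ratio scaling the transport list had 1 lower call, and after scaling to the same total it had 0, so that no ABCC gene was called. Under both scalings the other 2 lists had none lower. Without the filter the transport list had 1 lower call. Over all tested genes, lower calls were 1081 of 18253 (median-ratio scaling), 526 of 18282 (same total) and 2266 of 25417 (no filter). Without tt19-8 replicate 3 the transport list had 1 higher and 4 lower, the TGA list 1 and 1, and the xenobiotic list 1 and 3. In that fit 1419 of all 18128 tested genes were called higher and 4548 lower. In OE1 against tt19-8 limma called none of these 30 genes.

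The likeness of patterns was measured as the root mean square difference of log2(FPKM + 1), centred on each gene's mean over the 9 libraries, among genes that vary at least 1/1.5 as much as the member. For GSTU4 the nearest of 88 such genes were AT1G67920 (0.283), DIP2 (0.346) and AT4G18422 (0.36). AT1G67920 averaged 0.0545 (tt19-8), 0.218 (OE1) and 5.19 FPKM (OE2). By the same order of groups, DIP2 averaged 0, 0.0237 and 4.62 FPKM, and AT4G18422 averaged 0.4965, 0.4445 and 7.01 FPKM. None of these genes averaged 1 FPKM outside OE2, so their likeness to GSTU4 rests on being high in the OE2 tables. For GSTU7 the nearest of 829 were the calmodulin gene CAM6 (0.157), ERF1-3, a translation release factor gene (0.165), and the glutaredoxin gene GRXC1 (0.184). For GSTU5 the nearest of 1201 were AT1G29418 (0.238), ENA (0.247) and the prenyltransferase gene SPS2 (0.248), and for GSTU1 the nearest of 13475 were AT1G72820 (0.0959), AT3G09250 (0.0962) and AT5G12890 (0.105). By the same order of groups, AT1G72820 averaged 0.716, 0.721 and 1.52 FPKM, AT1G29418 averaged 1.02, 0.937 and 5.23 FPKM, and ENA averaged 0.870, 1.40 and 3.51 FPKM. AT1G72820 did not average 1 FPKM outside OE2, so its likeness to GSTU1 may rest on being high in the OE2 tables. Within the array the smallest differences were between GSTU1 and GSTU6 (0.324), GSTU1 and GSTU2 (0.340) and GSTU5 and GSTU7 (0.406). The largest was between GSTU2 and GSTU4 (1.38). GSTU1, GSTU2 and GSTU6 varied little, with an SD over the 9 libraries of 0.349, 0.323 and 0.351. Their differences are about as large as these SDs and show little likeness. GSTU5 and GSTU7 had SDs of 0.855 and 0.937.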

How the data were processed

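RNA sequencing values of 9 libraries were used as deposited, 1 table of 33602 genes per library. The values are FPKM made by the authors, and the submitters' processing notes list TAIR10 as build, HISAT 0.1.6 and edgeR, with no role for any. How multiply mapped reads, strand and gene lengths were handled is not given in the sources used here. Of the gene identifiers, 32835 matched RefSeq TAIR10.1, which gave symbols, positions and sequences.

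Whole fragments were recovered from OE1 and tt19-8 (22278 of 22366 genes above 0 in at least 3 of these 6 libraries, 99.6%), with total divisors of 48.6 M to 57.5 M fragments, M standing for the prefix mega. Tests used limma 3.58.1 in R 4.3.3 on log2(FPKM + 1), kept to 18232 genes that reached 1 FPKM in 3 or more libraries, with all 9 libraries in 1 fit, eBayes with trend and robust, and Benjamini-Hochberg adjustment over all tested genes at 0.05. Python 3.11.15, pandas 2.3.3 and numpy 2.4.6 served for tables, and coding sequences were aligned with Biopython 1.88 and, all 7 together, MAFFT 7.526.

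The alternatives were a pseudocount of 0.1, no filter, median-ratio scaling, scaling to the same total, fits of only the groups compared, replicate blocks, and each library left out. The fits of only the groups compared with a block, and voom on recovered fragments, were chosen after seeing the data. The members and gene lists were chosen with earlier results of these data known. Named list genes are those with the smallest p, up to 4 per list in OE2 and up to 3 in OE1 against tt19-8, of which those that bear on a call are printed; neighbours are the 5 tested genes on each side. Likeness is named for the 3 members of highest mean and those called in OE2. Upstream windows of 250 bases and coding sequence identity were taken from the genome, where promoter windows of 300 bases and protein identity had been planned.

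Pairing of replicate numbers was checked by subtracting group means and correlating what was left of any pair of libraries over genes. Between OE1 and OE2, equal numbers gave 0.953, 0.959 and 0.957, so these numbers pair the libraries. Between OE1 and tt19-8 they gave -0.0586, 0.0425 and 0.0315, and between OE2 and tt19-8 they gave -0.0336, 0.0267 and 0.0145, so there the libraries share only a number.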

Additional observations from a re-analysis of the deposited data

Results flagged for a closer look

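The changes of GSTU4 and GSTU7 against tt19-8 differed between the tables labelled OE1 and OE2. For GSTU4 the log2 change was larger in OE2 by 2.78 (limma, adjusted p = 0.0018), and for GSTU7 it was larger by 1.74 (limma, adjusted p = 0.00331). These are the values of the comparison of OE2 with OE1 given above. For both genes all OE2 libraries lay above all OE1 libraries, so OE2 is above OE1 in all 3 same-numbered pairs without adding to this. The OE2 values are tied to the OE1 values of the same number, so these p-values do not rest on libraries that vary independently.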

How the results depend on the processing

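The calls of GSTU4 and GSTU7 held in all 16 alternatives for OE2 against tt19-8 (log2 changes 2.61 to 3.55 and 1.71 to 2.35, highest limma adjusted p 0.00886 and 0.0162) and for OE2 against OE1 (highest adjusted p 0.0226 and 0.036). Genes called in OE1 against tt19-8 numbered 3, and 0 with a pseudocount of 0.1, with only these groups in the fit, or with voom. With the replicate block there were 16, or 15 with only these groups, where libraries share only a number. Leaving out 1 library gave 0 to 3128, the latter without tt19-8 replicate 3. In OE2 against tt19-8 there were 3467 (821 higher, 2646 lower), 1951 scaled to the same total (1425 and 526), 2327 after median-ratio scaling (1246 and 1081), 4872 with the replicate block, and 530 to 5967 without 1 library. In OE2 against OE1, 260 became 146 with a pseudocount of 0.1, 535 without a filter, 399 and 613 under the scalings, 12031 with only these groups and the replicate block, and 49 to 467 without 1 library. GSTU1 in OE2 against OE1 passed after median-ratio scaling (0.74, adjusted p = 0.0449) and to the same total (0.90, adjusted p = 0.014), GSTU5 passed without OE1 replicate 3 (1.68, adjusted p = 0.0357), and GSTU1 in OE2 against tt19-8 passed with the replicate block (adjusted p = 0.0431). Libraries of OE2 and tt19-8 share only a number, and with only these groups and the block GSTU1 did not pass (adjusted p = 0.101). Without 1 library, log2 changes in OE1 against tt19-8 ran from -0.0933 (without tt19-8 replicate 3) to 0.288 for GSTU4, from -0.153 (without OE1 replicate 3) to 0.53 for GSTU5 and from -0.0866 (without OE1 replicate 3) to 0.29 for GSTU7, and in OE2 against OE1 from -0.00187 (without OE1 replicate 1) to 0.273 for GSTU6. GSTU2 in OE2 against tt19-8 turned to 0.0187 scaled to the same total. None of these was called, and the cause was not tested.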
